A study of Mus musculus with 16 samples.

Results

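The 10 genes described here, P4ha1, P4ha2, P4ha3, Plod1, Plod2, Plod3, Serpinh1, Colgalt1, Crtap and P3h1, encode the hydroxylases, the galactosyltransferase and the folding chaperones that act on procollagen. They were taken by gene symbol from the 54532 genes of the deposited table, and all 10 symbols were found. RNA was sequenced from inguinal white adipose tissue (iWAT) of male mice that were 8 to 10 weeks old at the start of the experiments and that all received chow with 200 mg/kg doxycycline for 5 days. Has2_TG mice carried Apn-rtTA together with TRE-Has2, which makes the hyaluronan synthase Has2. PH20_TG mice carried Apn-rtTA together with TRE-PH20, which makes PH20, the hyaluronidase encoded by Spam1. Has2_WT and PH20_WT were the littermates of each line with Apn-rtTA and no TRE transgene, so the controls share the rtTA allele and the drug. Each of the 4 groups had 4 libraries, labelled as separate samples. The adiponectin promoter drives rtTA in adipocytes, whereas the RNA came from the whole depot.

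Procollagen chains are modified in the endoplasmic reticulum before they fold. The prolyl 4-hydroxylase alpha subunits P4ha1, P4ha2 and P4ha3 pair with the beta subunit P4hb and make the hydroxyproline that keeps the triple helix stable at body temperature. P3h1 and Crtap form a complex with the cyclophilin Ppib that hydroxylates single prolines at another carbon and helps the chains fold. Plod1, Plod2 and Plod3 hydroxylate lysines, Plod2 chiefly those of the telopeptides that later enter cross-links, and Colgalt1 adds galactose to hydroxylysine. Serpinh1 (HSP47) binds the folded triple helix and escorts it towards the Golgi. In adipose tissue the fibrillar collagens come mainly from progenitors and fibroblasts, and adipocytes make collagens as well.

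The sequence just upstream of the start sites is shown for 6 of the genes that differed between transgenic and control libraries in the tests below. They were chosen after the values were seen. The RefSeq table of promoter windows (GRCm38.p6) held entries for 9 of the 10 genes, in 11 windows, and had no entry for Plod2. Each line gives the 100 bases before the start site on the gene's own strand, 5′ to 3′. Capitals mark ACGTG, the core bound by hypoxia-inducible factors, or GGGCGG, the GC box, read on either strand (CACGT and CCGCCC on the other). The positions are chr10:59323196-59323295 (plus strand) for P4ha1, chr11:54100824-54100923 (plus) for P4ha2, chr4:147936777-147936876 (minus) for Plod1, chr7:99353240-99353339 (minus) for Serpinh1, chr9:114390713-114390812 (minus) for Crtap and chr4:119232815-119232914 (plus, the more upstream of 2 windows) for P3h1.
P4ha1: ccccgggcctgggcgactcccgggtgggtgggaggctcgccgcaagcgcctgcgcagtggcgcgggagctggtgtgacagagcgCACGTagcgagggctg
P4ha2: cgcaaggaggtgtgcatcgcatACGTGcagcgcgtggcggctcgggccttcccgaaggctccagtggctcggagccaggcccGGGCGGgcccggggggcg
Plod1: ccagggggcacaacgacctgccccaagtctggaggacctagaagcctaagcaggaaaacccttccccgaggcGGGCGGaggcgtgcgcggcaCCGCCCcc
Serpinh1: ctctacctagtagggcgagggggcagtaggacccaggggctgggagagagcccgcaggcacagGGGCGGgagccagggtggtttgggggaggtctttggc
Crtap: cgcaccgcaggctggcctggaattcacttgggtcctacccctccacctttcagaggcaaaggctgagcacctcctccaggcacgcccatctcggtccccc
P3h1: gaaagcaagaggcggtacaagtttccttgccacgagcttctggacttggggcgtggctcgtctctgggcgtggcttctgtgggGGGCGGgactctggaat

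P4ha1 and P4ha2 each carried ACGTG within these 100 bases, at 16 and 78 bases before the start site. The corresponding 100 bases of Plod3 and of the second P3h1 window, not printed above, also carried it. It lay 54 bases before the start for Plod3 and 31 and 19 bases before it for P3h1. Over the full windows of 300 bases (250 before and 50 after the start), ACGTG was present for P4ha1, P4ha2, Plod3, Serpinh1 and P3h1, in 5 of 11 windows, against 19.6% of all 32851 windows. The GC box was present in 10 of the 11 windows, against 35.7% of all windows. The share of G and C in the 11 windows ran from 51.0% for a window of Colgalt1 to 70.3% for both P4ha1 and P4ha2, against a median of 52.7% over all windows. In all, 9 motifs were searched on both strands. CCAAT was present in 3 of the 11 windows (37.4% of all) and TATAAA in 3 (13.6%). The other 5 were TTTCGCGC (0.323% of all windows), GTCTAGAC (0.213%), TGANTCA (7.81%), the heat shock element (0.603%) and the endoplasmic reticulum stress element (0.119%), and none of the 11 windows held one of these. A match is a description of letters and was not tested as a binding site.

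The libraries held between 14421692 and 26751729 reads on genes, with a median of 18452544.5, recovered from FPKM, the deposited unit of fragments scaled to gene length and a library total. That total was 0.886 to 1.14 times the reads on genes, so the scaling was not by those reads alone. Among all 120 pairs of libraries the recovered reads differed by more than sampling noise, with a chi-square per degree of freedom of at least 28.7, so none was counted as a duplicate. The labelled genotypes were checked first. Has2 was at 2.59 ± 0.631 FPKM in Has2_TG and 0.585 ± 0.176 in Has2_WT (SD, n = 4 each). Spam1 had no read in any Has2_WT, Has2_TG or PH20_WT library and 6, 12 and 5 reads in PH20_TG2, PH20_TG3 and PH20_TG4, but none in the library labelled PH20_TG1. The libraries labelled PH20_TG1 and PH20_TG4 held Has2 at 3.32 and 3.26 FPKM, as high as the Has2_TG libraries, and PH20_TG2 and PH20_TG3 held it at 0.380 and 0.0990. The fold changes and calls of the genes in PH20_TG are therefore also given without the library labelled PH20_TG1. Markers of the labelled tissue were present in all libraries, where the 10 adipocyte markers summed to between 9882 and 27635 FPKM. Much of that sum was Cfd, with group means between 11242 and 14036 FPKM.

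Serpinh1 was by far the most abundant of the genes. Its level per length averaged 250.1 FPKM over the 16 libraries, above 98.9% of the 12593 genes that reached the minimum of 50 reads on average. Crtap followed at 41.8 FPKM, then Plod3 at 23.5, Colgalt1 at 19.3, Plod1 at 15.1, P4ha1 at 9.28, P3h1 at 8.98, P4ha2 at 5.25 and Plod2 at 1.55. Serpinh1 exceeded Crtap in 16 of 16 libraries, and the same held for Crtap over Plod3, P3h1 over P4ha2 and P4ha2 over Plod2. Neighbours in the middle of the order were less distinct. Plod3 exceeded Colgalt1 in 13 libraries, Colgalt1 exceeded Plod1 in 13 and Plod1 exceeded P4ha1 in 15. P4ha1 and P3h1 could not be ordered, since P4ha1 was the higher in 7 of 16 libraries. Exons of Plod3 (11.9% of bases, with Znhit1 and Mir702), Colgalt1 (11.4%, with Unc13a) and Plod2 (6.42%, with Gm38391) overlap other genes, and whether the counting used the strand is not given in the sources used here, so part of their reads may belong to those genes.

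**Figure D1:**
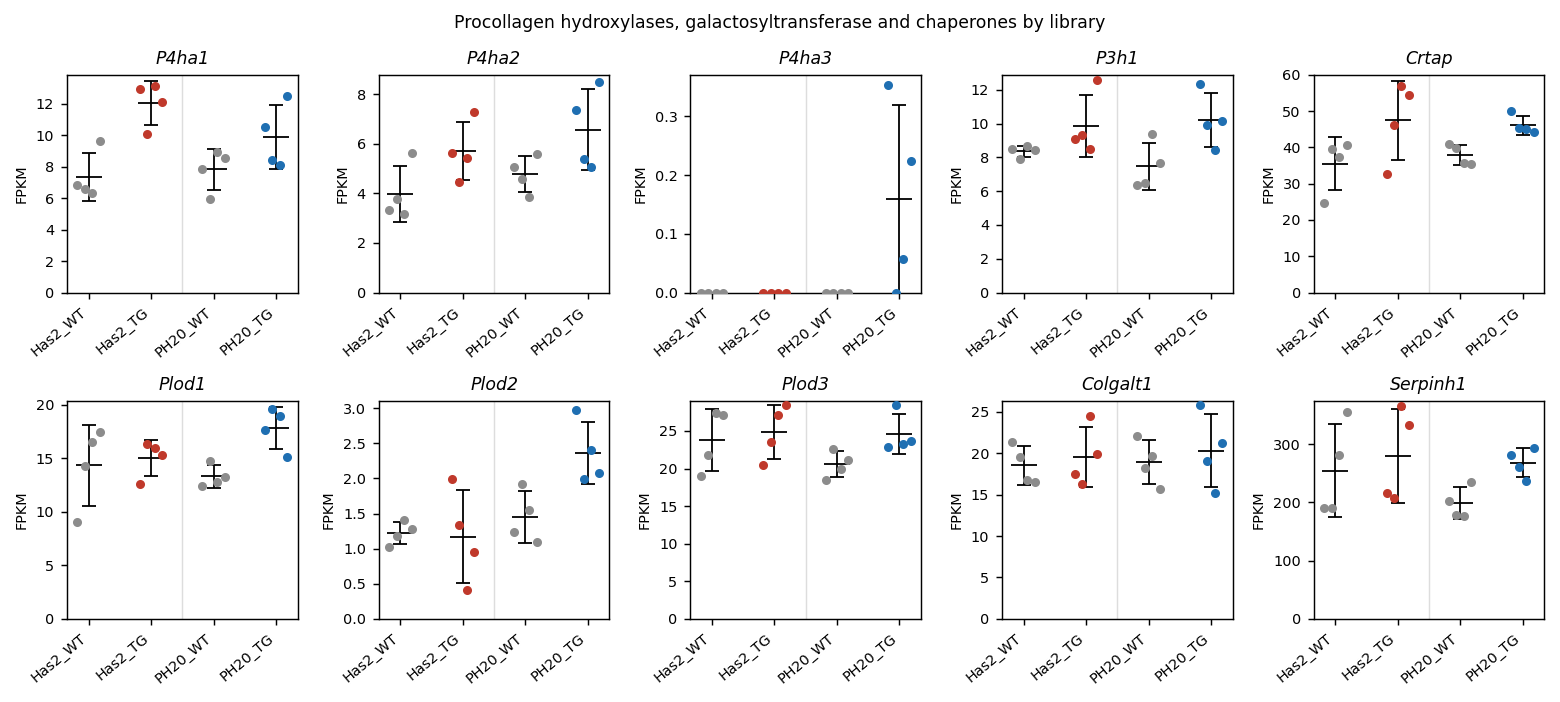
FPKM of each of the 10 genes (vertical axes, linear from 0) in the 16 libraries, by group. Points are libraries, long bars the group mean and whiskers 1 SD. P4ha1 is higher in all 4 Has2_TG libraries than in any Has2_WT library, Serpinh1, Crtap, Plod1, Plod2 and Plod3 are higher in all 4 PH20_TG libraries than in any PH20_WT library, and P4ha3 is above 0 in 3 PH20_TG libraries.

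To ask how more hyaluronan synthase in adipocytes bears on these genes, Has2_TG was compared with Has2_WT. Of the prolyl 4-hydroxylase alpha subunits, P4ha1 rose by 1.65-fold and P4ha2, at the edge of the threshold, by 1.44-fold, while P4ha3 had no read. The lysyl hydroxylases, the galactosyltransferase, the chaperone Serpinh1 and the Crtap and P3h1 pair did not pass the test. Of the 10 genes 9 had enough reads to be tested. With limma on log2(FPKM + 0.1) and a threshold of 0.05 on the unadjusted p, 2 of the 9 were higher and 0 lower, where 6.25% of the 12606 genes tested were higher and 3.75% lower. No gene of the 9 passed an adjusted p of 0.05 by limma with Benjamini-Hochberg adjustment (smallest 0.145), a level that 0.103% of all genes reached. The log2 fold changes of the 9 had a median of 0.14, against -0.03 over all genes tested.

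P4ha1 was at 12.9, 10.1, 13.2 and 12.1 FPKM in Has2_TG1 to Has2_TG4. In Has2_WT1 to Has2_WT4 it was at 6.82, 6.58, 6.36 and 9.66 FPKM. The groups did not overlap, although Has2_WT4 lay close to the lowest transgenic library. The log2 fold change was 0.72 (SE 0.18, 95% interval 0.32 to 1.12) with an unadjusted p of 0.0027 and an adjusted p of 0.145 by limma. P4ha1 was the only one of the 9 whose groups did not overlap, as did 6.19% of all genes tested. It kept an unadjusted p under 0.05 under every alternative that was run, with p up to 0.0287, and its log2 fold change ranged from 0.60 to 0.86.

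P4ha2, the alpha subunit of the second isoenzyme, was at 5.61, 4.47, 5.42 and 7.30 FPKM in Has2_TG1 to Has2_TG4. The control values were 3.31, 3.77, 3.15 and 5.63 FPKM in Has2_WT1 to Has2_WT4. Here the groups overlapped, because Has2_WT4 exceeded 3 of the 4 transgenic libraries. The log2 fold change was 0.53 (SE 0.24, 95% interval 0.00 to 1.06, unadjusted p 0.0498, adjusted p 0.499 by limma). This call stood at the threshold and was lost under several alternatives, among them the removal of Has2_WT1, Has2_WT2, Has2_WT3, Has2_TG1, Has2_TG3 or Has2_TG4.

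The partner of both subunits, P4hb, also known as protein disulfide isomerase, was at 142.2 ± 37.9 FPKM in Has2_TG and 113.9 ± 16.98 in Has2_WT (SD, n = 4 each). Its log2 fold change of 0.30 had an unadjusted p of 0.173 by limma, so it did not pass. The log2 ratio of P4hb to the summed alpha subunits was 2.97 ± 0.325 in Has2_TG and 3.35 ± 0.185 in Has2_WT, with an exact permutation p of 0.114 (two-sided). P4ha1 made up 68.0% ± 3.85 of the summed alpha subunits in Has2_TG and 65.2% ± 2.16 in Has2_WT (exact permutation p 0.229), so the make-up of the family was not shown to change.

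Crtap and P3h1, the complex that modifies single prolines, gave log2 fold changes of 0.41 (95% interval -0.09 to 0.91) and 0.22 (-0.14 to 0.58). Crtap was at 32.6, 46.0, 56.8 and 54.4 FPKM in the transgenic libraries against 24.7, 39.6, 37.3 and 40.6 in the controls, and only Has2_TG1 fell within the control range. P3h1 was at 9.10, 9.32, 8.5004 and 12.6 FPKM against 8.47, 7.90, 8.67 and 8.43. Ppib, the third member of the complex, was at 14.6 ± 2.44 against 13.0 ± 1.90 FPKM, with a log2 fold change of 0.16 (unadjusted p 0.395 by limma).

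The lysine-modifying enzymes gave small differences with wide intervals. Log2 fold changes were 0.11 for Plod1 (95% interval -0.38 to 0.59), 0.07 for Plod3 (-0.31 to 0.46) and 0.07 for Colgalt1 (-0.31 to 0.44). Plod2 varied most, at 1.99, 1.34, 0.416 and 0.949 FPKM in Has2_TG against 1.03, 1.18, 1.41 and 1.28 in Has2_WT. Its log2 fold change of -0.22 had an interval from -1.16 to 0.71, so neither a fall nor a rise of that size was detectable. Serpinh1 was at 215.8, 207.3, 364.6 and 332.4 FPKM in Has2_TG and at 191.0, 190.8, 280.8 and 355.5 in Has2_WT. Both groups split into libraries near 200 and libraries above 280 FPKM, and its log2 fold change of 0.14 had an interval from -0.46 to 0.75. Serpinh1, Plod1 and Plod3 turned to -0.22, -0.18 and -0.14 without the B cell-rich control libraries described below.

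PH20_TG against PH20_WT asks the same of hyaluronan removal. More of the genes passed the test here, and the genes that passed were others. They were Plod2 at 1.60-fold, P3h1 at 1.37-fold, Serpinh1 at 1.36-fold, Plod1 at 1.34-fold and Crtap at 1.21-fold. The effect was not shown to differ between the studies for any of the 9 genes, as given below. In total 5 of the 9 tested genes were higher at an unadjusted p under 0.05 by limma and 0 were lower, where 3.2% of the 12532 genes tested were higher and 3.39% lower. No gene of the 9 passed an adjusted p of 0.05 (smallest 0.664), nor did any gene of the table (0%), while 401 were higher and 425 lower at an unadjusted p under 0.05 by limma, and 413 and 399 by limma with voom weights on the recovered reads. Transgenic and control values were fully separate for 5 of the 9, against 4.54% of all genes. Log2 fold changes had a median of 0.42 among the 9 and of 0.01 among all genes. The 5 calls became 0 with a skeletal muscle marker score in the fit, 0 with a B cell marker score, 1 (P3h1) without the B cell-rich control libraries described below and 2 (Plod1 and P3h1) in a fit of all 16 libraries. Without the library labelled PH20_TG1, 3 were left, Plod2 (log2 fold change 0.57, unadjusted p 0.0403 by limma), Plod1 (0.42, unadjusted p 0.0158) and Serpinh1 (0.41, unadjusted p 0.0388).

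Plod2 was at 2.98 FPKM in the library labelled PH20_TG1 and at 1.995, 2.40 and 2.08 in PH20_TG2 to PH20_TG4. PH20_WT1 to PH20_WT4 held 1.23, 1.92, 1.55 and 1.10 FPKM. All transgenic libraries exceeded all controls, by a narrow margin between PH20_TG2 and PH20_WT2. The log2 fold change was 0.68 (SE 0.23, 95% interval 0.17 to 1.19, unadjusted p 0.0149, adjusted p 0.692 by limma).

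Plod1, which acts on lysines within the helix, was at 17.7, 19.6, 18.9 and 15.1 FPKM in PH20_TG1 to PH20_TG4. The control libraries held 12.4, 14.8, 12.7 and 13.3 FPKM. Again the groups did not overlap, and the nearest values were those of PH20_TG4 and PH20_WT2. The log2 fold change was 0.42 (SE 0.12, 95% interval 0.14 to 0.70, unadjusted p 0.0085, adjusted p 0.664 by limma). Plod3, at 22.8, 28.5, 23.3 and 23.7 FPKM against 18.5, 22.6, 20.004 and 21.2, also did not overlap but missed the threshold (log2 fold change 0.26, unadjusted p 0.064). Colgalt1 gave 0.09 (95% interval -0.32 to 0.50), with overlapping groups.

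Serpinh1 was at 280.7, 260.6, 236.3 and 293.2 FPKM in PH20_TG1 to PH20_TG4. It was at 202.9, 178.3, 176.5 and 235.3 FPKM in PH20_WT1 to PH20_WT4. The groups touched without overlap, at PH20_TG3 and PH20_WT4. The log2 fold change was 0.44 (SE 0.15, 95% interval 0.09 to 0.78, unadjusted p 0.0187, adjusted p 0.702 by limma).

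Crtap was at 49.99, 45.3, 45.1 and 44.2 FPKM in PH20_TG against 40.9, 39.8, 35.8 and 35.5 in PH20_WT. The groups did not overlap, with a log2 fold change of 0.28 (SE 0.11, unadjusted p 0.0285, adjusted p 0.703 by limma). This call was kept in 7 of 12 alternatives and in 4 of 8 fits that left out 1 library, and it was lost without the library labelled PH20_TG1 (0.24, unadjusted p 0.0618 by limma). P3h1 was at 12.3, 9.93, 8.45 and 10.2 FPKM against 6.36, 6.51, 9.36 and 7.68. PH20_WT3 exceeded PH20_TG3, and the log2 fold change was 0.45 (SE 0.17, unadjusted p 0.0274, adjusted p 0.703 by limma). Without the library labelled PH20_TG1 it was 0.36 (unadjusted p 0.0699 by limma), so this call was lost too. The log2 ratio of Crtap to P3h1 was 2.19 ± 0.168 in PH20_TG and 2.36 ± 0.352 in PH20_WT, with an exact permutation p of 0.343.

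The prolyl 4-hydroxylase subunits did not pass in this study. P4ha1 was at 10.5, 8.41, 8.12 and 12.5 FPKM in PH20_TG and at 7.86, 5.98, 8.96 and 8.55 in PH20_WT (log2 fold change 0.32, 95% interval -0.10 to 0.75). P4ha2 was at 7.34, 5.37, 5.06 and 8.505 FPKM against 5.07, 4.59, 3.85 and 5.57 (log2 fold change 0.43, -0.03 to 0.89). For both genes the highest values were those of the libraries labelled PH20_TG1 and PH20_TG4, the ones with high Has2. Without the library labelled PH20_TG1 the log2 fold changes were 0.29 for P4ha1, 0.37 for P4ha2, 0.29 for Plod3 and -0.035 for Colgalt1. P4hb rose, at 135.4 ± 15.0 against 107.5 ± 1.78 FPKM (log2 fold change 0.33, SE 0.12, unadjusted p 0.0252, adjusted p 0.703 by limma), a call lost without the library labelled PH20_TG1 (0.25, unadjusted p 0.0553). Ppib was at 17.02 ± 3.68 against 13.8 ± 0.766 FPKM (unadjusted p 0.109).

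P4ha3, the third alpha subunit, was detected in PH20_TG alone, with 19 reads in the library labelled PH20_TG1, 0 in PH20_TG2, 3 in PH20_TG3 and 10 in PH20_TG4. The other 12 libraries had 0 reads, which allows up to 3 reads per library, or 0.0351 to 0.0608 FPKM. The PH20_TG mean of 0.159 ± 0.161 FPKM (SD, n = 4) was 2.996-fold the PH20_WT mean with every control at that floor. This ratio leaves out the wide spread of the PH20_TG libraries and is no firm lower bound. Most reads lay in the libraries labelled PH20_TG1 and PH20_TG4, the ones with high Has2. Without the library labelled PH20_TG1, which has no Spam1 read and held most of the P4ha3 reads, the mean was 0.0938 ± 0.116 FPKM (SD, n = 3) and the ratio 1.77-fold. P4ha3 fell below the 50 reads needed for the test.

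**Figure D2:**
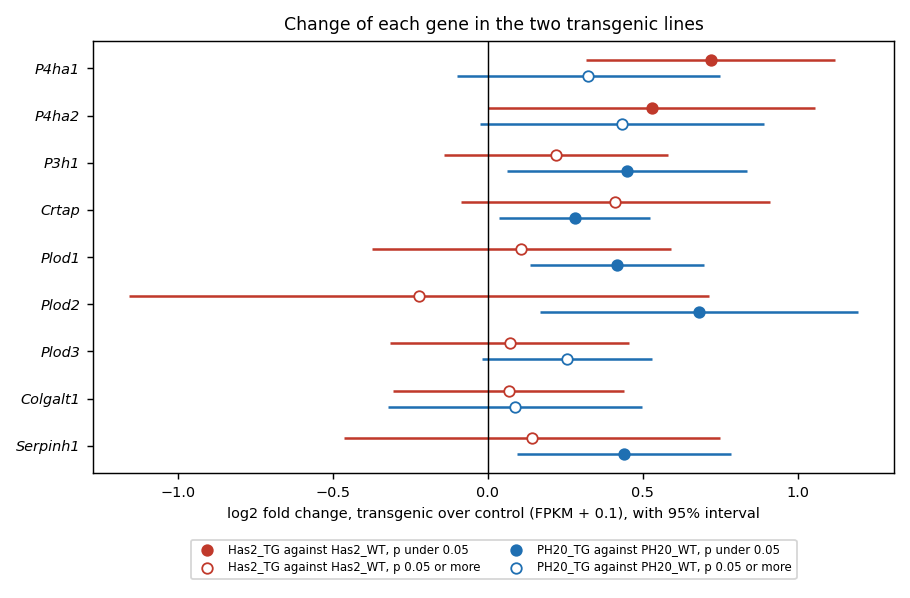
Log2 fold change of transgenic over control libraries (horizontal axis, on FPKM + 0.1) for the 9 genes tested, with 95% intervals from limma. Filled points have an unadjusted p under 0.05: P4ha1 and P4ha2 in the Has2 study (red), and P3h1, Crtap, Plod1, Plod2 and Serpinh1 in the PH20 study (blue). The intervals of the 2 studies overlap for every gene.

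Although different genes were called in the studies, the difference between the effects was not shown for any gene. In a limma fit on all 16 libraries 0 of the 9 genes differed in the transgene effect, where 7.7% of 12593 genes did at an unadjusted p under 0.05. The Plod2 effect was lower in the Has2 study by the widest margin (log2 difference -0.90, 95% interval -1.92 to 0.11, unadjusted p 0.0782). The P4ha1 effect was higher in the Has2 study by 0.40 (-0.15 to 0.94, unadjusted p 0.145). The interval for P4ha2, 0.09 (-0.57 to 0.76), still allows a sizeable difference in either direction. The control groups were also compared, and 0 of the 9 genes differed between PH20_WT and Has2_WT, where 10.3% of genes did. Serpinh1 was lower in PH20_WT with a log2 difference of -0.32 (-0.80 to 0.16).

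The make-up of the families was described from shares of summed FPKM. P4ha1 was the main alpha subunit in every library, between 56.5% and 70.8% of the family. Plod3 was the main lysyl hydroxylase, between 52.2% and 65.3%, followed by Plod1, and Plod2 never exceeded 6.85%. In the PH20 study Plod3 made up 54.9% ± 2.94 in PH20_TG and 58.2% ± 0.954 in PH20_WT (exact permutation p 0.0857). Plod2 made up 5.32% ± 1.18 against 4.08% ± 0.799 (exact permutation p 0.143). None of the family shares, nor the log2 ratio of Colgalt1 to Plod3, passed in either study.

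**Figure D3:**
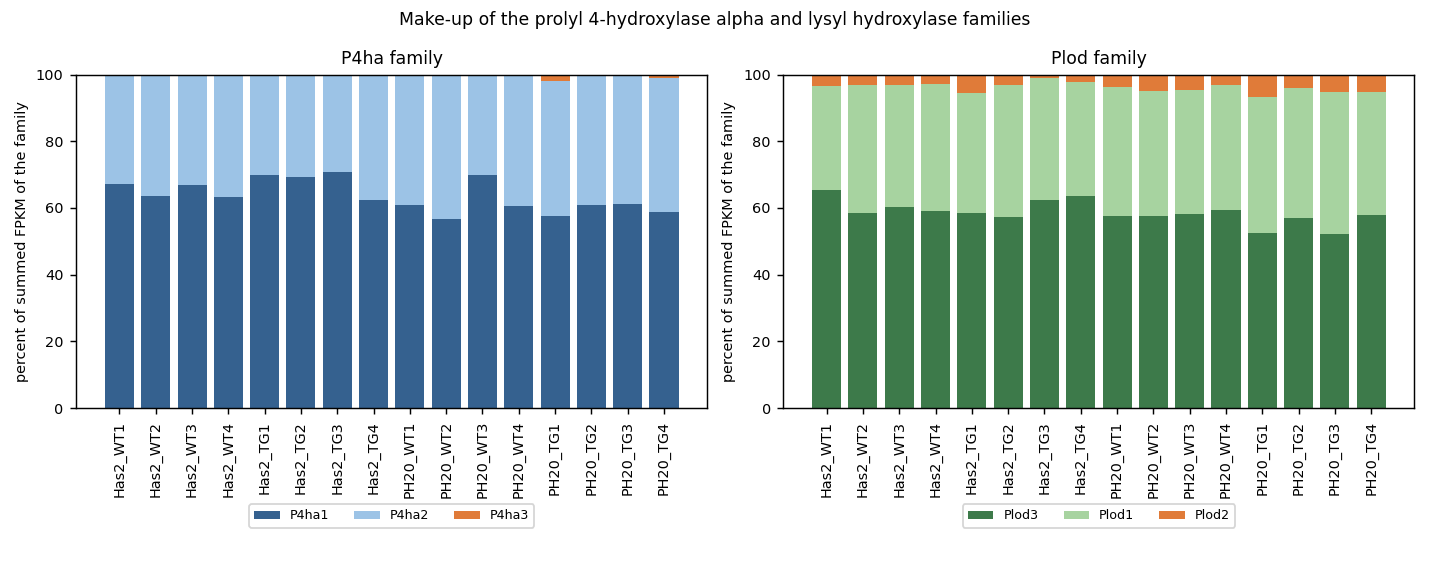
Share of each gene in the summed FPKM of its family (vertical axis, percent) in each of the 16 libraries, for the prolyl 4-hydroxylase alpha subunits (left) and the lysyl hydroxylases (right). P4ha1 and Plod3 hold the main share in every library, and P4ha3 shows as a thin band in PH20_TG libraries.

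The collagens that these proteins act on were followed as a list of their own. Of 22 collagen chain genes tested 12 rose and 0 fell in Has2_TG, with a median log2 fold change of 0.79. Among them Col14a1, a fibril-associated collagen, rose by 2.01, and Col1a1 and Col1a2, the chains of type I collagen, by 1.53 and 1.44. Some chains had values below 0 that did not pass, Col4a1 (-0.17), Col4a2 (-0.20), Col5a3 (-0.16), Col15a1 (-0.45) and Col27a1 (-0.41). Chains and modifying genes were not tested against each other. Each library's level was also set against fibrillar collagen, as the log2 ratio of the gene to the mean of Col1a1, Col1a2 and Col3a1. These 3 chains rose in Has2_TG and were chosen with that known, whereas the fibrillar chains Col5a1 (0.90), Col5a2 (0.68) and Col5a3 were not in the reference. A lower ratio in Has2_TG therefore restates in part that the reference rose, and its p is not independent evidence.

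Relative to fibrillar collagen, Serpinh1 stood at 0.10, 0.19, -0.11 and 0.14 in Has2_TG1 to Has2_TG4. It stood at 0.96, 1.17, 1.76 and 1.16 in Has2_WT1 to Has2_WT4. All transgenic libraries lay below all controls, and the difference of -1.18 had an exact permutation p of 0.0286, the smallest that 4 against 4 libraries can give. Plod1 (-1.22), Plod3 (-1.26), Colgalt1 (-1.26), P3h1 (-1.10) and P4ha2 (-0.79) were lower with the same exact p. P4ha1 (-0.60), Crtap (-0.91) and Plod2 (-1.59) had an exact permutation p of 0.0571. The 9 ratios share 1 denominator and are not separate results, and after Benjamini-Hochberg adjustment over the 34 shares and ratios computed the smallest exact permutation p was 0.162.

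In the PH20 study the same ratios differed by between -0.24 and 0.39, and 0 of 9 passed. Without the library labelled PH20_TG1 they differed by between -0.027 and 0.61. Serpinh1 relative to collagen was at -0.71 in the library labelled PH20_TG1 and -0.52 in PH20_TG4, but at 1.41 and 0.74 in PH20_TG2 and PH20_TG3. The PH20_TG libraries thus fell into high and low pairs, and the pair with the lower ratio was the one with high Has2. Whether the ratios changed differently in the 2 studies was not tested.

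**Figure D4:**
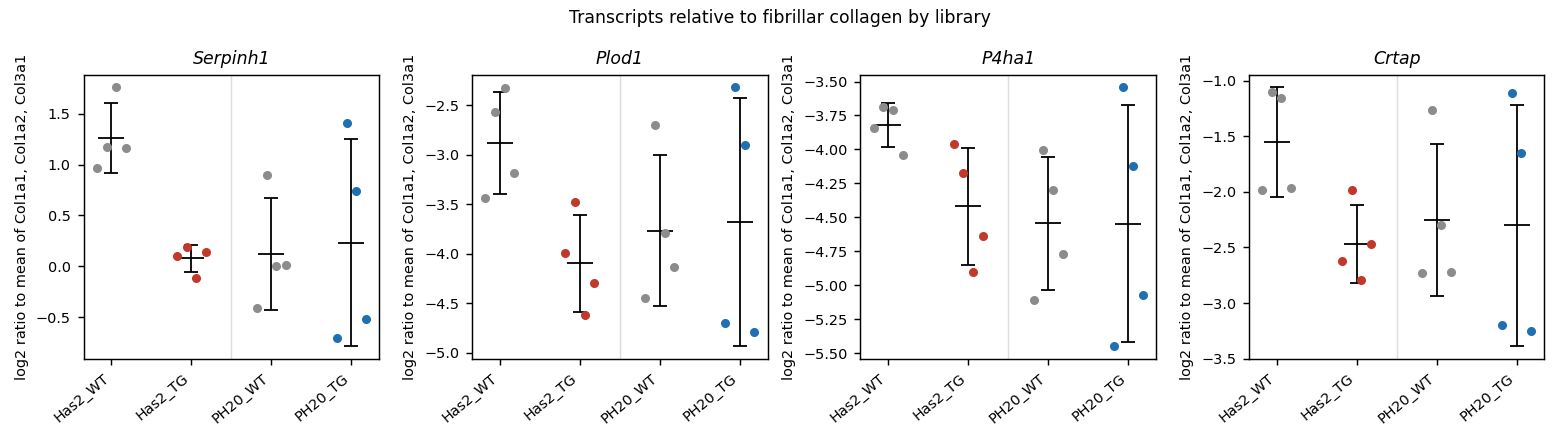
Log2 ratio of Serpinh1, Plod1, P4ha1 and Crtap to the mean log2 FPKM of Col1a1, Col1a2 and Col3a1 (vertical axes) in each library, by group, with group mean and SD. The Has2_TG libraries lie below the Has2_WT libraries for Serpinh1 and Plod1, and PH20_TG splits into a high and a low pair.

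Other proteins of procollagen maturation were followed in lists of partners, export factors and general chaperones. Of 11 partners and paralogs tested 4 rose and 0 fell in Has2_TG, among them P3h4 (log2 fold change 1.17), P3h3 (0.93) and the isomerase Fkbp14 (0.78). P3h3 and P3h4 belong to a complex with Plod1. In PH20_TG 2 rose and 0 fell, Fkbp7 (0.46) and P4hb. Among 16 genes of procollagen export 3 rose in Has2_TG, the retrieval receptors Kdelr2 (0.76) and Kdelr3 (1.00) and the secretory-pathway transcription factor Creb3l1 (1.04), and none was called in PH20_TG. Of 16 general chaperones of the endoplasmic reticulum, Sdf2l1 (0.63) and Pdia3 (0.42) rose in Has2_TG and Dnajb9 (0.48) in PH20_TG, and none fell. Over all genes tested, 6.25% were higher and 3.75% lower in Has2_TG, and 3.2% and 3.39% in PH20_TG. The list counts here and below stand beside these shares, and those of the general chaperones are not far from them.

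Enzymes that act on procollagen after its export, and their enhancers, formed the next list. Of 10 procollagen proteinases, enhancers and lysyl oxidases tested, 7 rose and 0 fell in Has2_TG (median log2 fold change 1.06), with the C-proteinase Bmp1 at 1.29, its enhancer Pcolce2 at 2.09 and the lysyl oxidase Loxl1 at 1.18. In PH20_TG 1 of 9 rose, the N-proteinase Adamts14 (1.00), and 0 fell. For collagen chains 7 of 22 rose and 0 fell in PH20_TG (median 0.37), and the 3 with the smallest p were Col5a3 (0.65), Col15a1 (0.72) and Col6a3 (0.75). Without the library labelled PH20_TG1 these 3 stayed called among 4 chains, and 0 of the proteinases and oxidases were called. Hypoxia-inducible genes, of which P4ha1 and P4ha2 are textbook members, were followed in a separate list without them. Of 14 tested, 0 rose and 3 fell in Has2_TG, Pdk1 (-0.87), Slc2a1 (-0.91) and Hk2 (-0.67), and 0 were called in either direction in PH20_TG. Without the library labelled PH20_TG1, 2 of them rose, Vegfa (0.71) and Higd1a (0.82), and 1 fell, Mxi1 (-0.43).

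Cell type markers moved with the groups as well. In Has2_TG 9 of 12 markers of adipocyte progenitors and fibroblasts rose and 0 fell (median log2 fold change 1.44), and the 3 with the smallest p were Dpp4 (1.77), Ly6a (1.31) and Mfap5 (1.45). Their summed level was 3422 to 4856 FPKM in Has2_TG and 2040 to 3255 in Has2_WT, with no overlap. Gsn, which did not pass (log2 fold change 0.45, unadjusted p 0.128 by limma), made up 78.0% to 81.8% of that sum in Has2_TG and 84.1% to 92.4% in Has2_WT. The other 11 markers summed to 682.4 to 1011 FPKM in Has2_TG and 217.0 to 458.3 in Has2_WT, again with no overlap. In PH20_TG 1 of 12 rose, Pdgfrb (0.47), and the sums overlapped at 2521 to 3901 against 2676 to 3552, as did those of the other 11 markers at 206.4 to 1058 against 299.7 to 1011. No marker of this list was at 0 in a group. In bulk tissue, more cells of a type cannot be told apart from more RNA per cell, and the part of these cells in the P4ha1 and P4ha2 values was not tested. The 10 adipocyte markers gave no call in either study. Without the library labelled PH20_TG1, Cidec was called in PH20_TG (log2 fold change 0.73, unadjusted p 0.0488 by limma).

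Other cell types differed between control and transgenic libraries. Skeletal muscle markers summed to 243.8 to 1022 FPKM in PH20_WT and 10.0 to 291.5 in PH20_TG, and 9 of 10 fell, among them Mylpf (-3.60) and Tnni2 (-4.32). With a muscle marker score in the fit 0 of the 5 calls in PH20_TG kept an unadjusted p under 0.05, although their log2 fold changes stayed between 0.21 and 0.76. B cell markers summed to 298.8 and 244.7 FPKM in Has2_WT1 and Has2_WT2 and to 317.1 and 117.7 in PH20_WT1 and PH20_WT3, and to at most 6.44 elsewhere. In Has2_TG 2 of 8 B cell markers fell (Cd79a and Fcer2a) and in PH20_TG 5 of 8 fell, and 2 and 4 of 7 T cell markers fell. Without those 4 control libraries, a choice made after seeing the data, P4ha1 remained called in Has2_TG (log2 fold change 0.61) and P3h1 (0.51) was the only call left in PH20_TG. P4ha2 was then at 0.40 and Plod2, Plod1, Serpinh1 and Crtap at 0.65, 0.34, 0.38 and 0.29.

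Macrophage markers rose in Has2_TG for 4 of 6, and the 3 with the smallest p were Cd163 (0.92), Adgre1 (0.88) and Csf1r (0.72). In PH20_TG 0 of 6 rose, and the library labelled PH20_TG1 reached a sum of 1516 FPKM against 161.6 to 479.9 in the other 3. Without it 6 of 6 fell, with a median log2 fold change of -1.02. Endothelial markers gave 1 call of 6 in Has2_TG, Tek (1.27), and 0 in PH20_TG. Of 4 smooth muscle and pericyte markers tested, Myh11 (-1.002) fell in Has2_TG and Notch3 (0.54) rose in PH20_TG. The number of the 9 genes called in PH20_TG was 3 without the library labelled PH20_TG1 and also without PH20_WT2, PH20_WT3 or PH20_TG4, and Plod1 and Plod2 were called in each of these 4 fits.

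**Figure D5:**
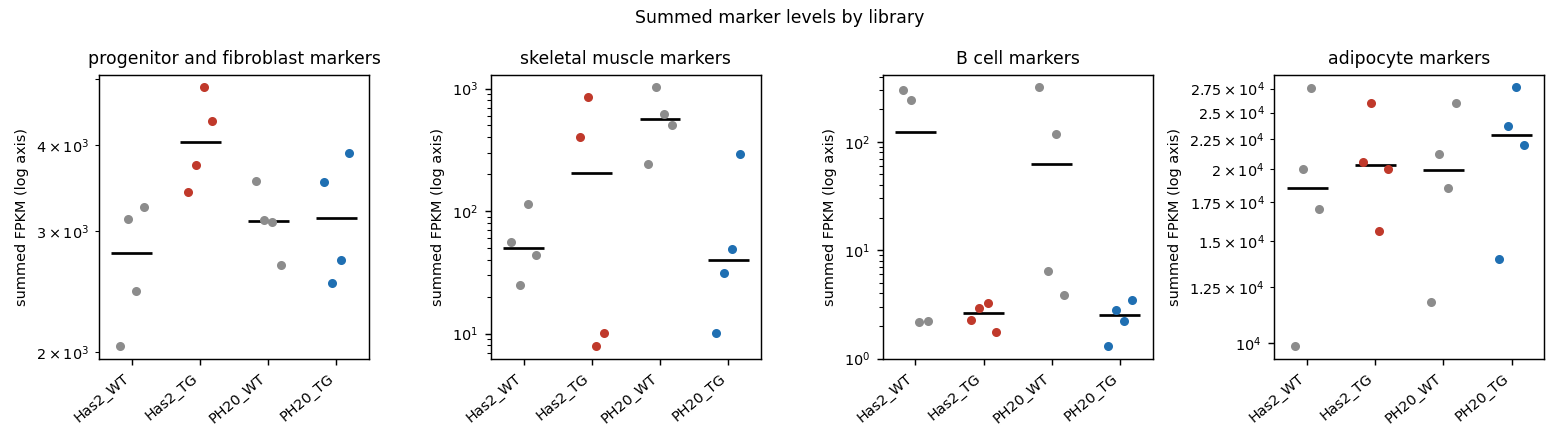
Summed FPKM of markers of 4 cell types (vertical axes, log scale) in each library, by group, with the group median as a bar. Progenitor and fibroblast markers, a sum made up mostly of Gsn, are higher in all Has2_TG than in all Has2_WT libraries, muscle markers are mostly lower in PH20_TG than in PH20_WT, and 2 libraries of each control group stand out for B cell markers.

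Across the 16 libraries the genes differed in how far they moved together, which is given as a description because the libraries share groups and cell make-up. Among the 36 pairs of the 9 genes, the highest Pearson r on log2(FPKM + 0.1) were 0.78 for Serpinh1 and Plod3, 0.76 for Plod3 and Plod1, 0.75 for Crtap and Plod1 and 0.73 for P4ha1 and P4ha2. The lowest was -0.27 for Serpinh1 and Plod2. Over 12296 genes, P4ha1 was most like Creb3l1 (0.89), Lamc1 (0.88) and Gdf10 (0.88), and P4ha2 most like Jdp2 (0.87), Pcolce (0.87) and Mmp3 (0.85). Serpinh1 was most like Blmh (0.88), P4hb (0.84) and Morf4l2 (0.84).

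The genes most like the lysine-modifying enzymes were others. Plod1 was closest to Gas2l1 (0.92), Blvra (0.89) and Gamt (0.88), Plod2 to Washc3 (0.87), Fuca2 (0.85) and Krtcap2 (0.84), and Plod3 to Lrpap1 (0.93), Zfand3 (0.87) and Kctd17 (0.87). Colgalt1 was closest to Adam17 (0.91), Dclk1 (0.90) and Tubb2b (0.88). Crtap was closest to Fer (0.91), Lix1l (0.89) and Rabl2 (0.88), and P3h1 to Wrb (0.79), Glt8d1 (0.78) and E2f1 (0.77), the weakest likeness among the 9 genes.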

How the data were processed

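Inguinal white adipose tissue RNA from 16 libraries in 4 groups was analysed from the table of FPKM values deposited by the authors. According to the study's methods and the processing notes, the authors checked reads with FastQC 0.11.9 and mapped them with STAR 2.7.9a to GRCm38, counted and normalised reads per gene, and used MultiQC 1.12 and DESeq2. Whether replicates were separate mice is not stated per label, so p-values measure the spread between these libraries.

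FPKM multiplied by gene length gave whole reads (tolerance 0.05) for 100% of values, and depth was taken from these. Groups came from the sample titles. Genes averaging 50 reads or more were tested with limma 3.58.1 in R 4.3.3 on log2(FPKM + 0.1) with a variance trend. This replaces a count model because the values are FPKM, and fold changes on that scale understate low genes. Each study was fitted on its own 8 libraries, and the difference of effects and the control groups on all 16. Calls use an unadjusted p under 0.05, with Benjamini-Hochberg values beside them; the study's methods give a p threshold of 0.05 without saying whether it was adjusted. Shares and ratios were tested by exact two-sided permutation (scipy 1.17.1). A floor of 3 reads covers counting error only. Gene coordinates and lengths matched GENCODE M21 for all 10 genes. The test was checked on simulated data of the Has2 design only, with planted changes larger than those called among the 10 genes. That check does not cover the PH20 libraries or changes of the size called.

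The members and lists were chosen with earlier results of these data known. All 10 members were named, and from each other list up to 3 genes with the smallest p under 0.05 in each study, with P4hb, Ppib, Has2 and Spam1, and the 3 genes most correlated with each member; Col1a1, Col1a2 and Col3a1 served as the collagen reference. Alternatives varied the pseudocount, read minimum, scaling, weights, trend, block, marker scores, libraries fitted and libraries left out.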

Additional observations from a re-analysis of the deposited data

Results flagged for a closer look

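In 37 sets of 4 libraries, each a gene in a group, 2 held a library far from the other 3. Chance marks about 1 in 20 such sets, so this number is no more than chance gives. The count does not show that either value arose by chance. P4ha1 in Has2_WT4 was at 9.66 FPKM while the other 3 Has2_WT libraries lay between 6.36 and 6.82. Without Has2_WT4 the difference of the P4ha1 effects between the studies was called. Has2_WT4 also had the highest Has2_WT sum of collagen chains, 1417 FPKM against 826 to 908. Its adipocyte marker and hypoxia-inducible sums lay within the range of the other 3. In Has2_TG, 141 genes passed the adjusted p threshold without Has2_WT4, against 13 with all libraries and 0 without any other single library. The paper names Has2_WT4 as the exception to the separation of Has2 groups in its principal component analysis. Why it differed was not tested. Plod3 in PH20_TG2 was at 28.5 FPKM while the other 3 PH20_TG libraries lay between 22.8 and 23.7.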

How the results depend on the processing

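Of 1148 values recomputed under an alternative, 1056 counted as the same, 41 lost a call, 17 gained one and 34 changed sign, none of them with a call in the reported fit. For most values, the same means that direction and side of the threshold were kept. Shares and ratios with a library left out were not tested. Those without a call counted as the same if they moved by no more than the larger group SD, even where the sign turned. The 34 do not include such turns. The cause of the changes was not tested. In Has2_TG the 2 calls became 1 with a pseudocount of 1, without a read minimum, without the variance trend, with the B cell score and without the B cell-rich controls, 3 in a fit of all 16 libraries (Crtap gained), and 1 to 2 when single libraries were left out. In PH20_TG the 5 calls became 0 with the muscle or the B cell score, 2 in a fit of all 16 libraries (Plod1 and P3h1), 7 without a read minimum (P4ha3 and Plod3 gained) and 1 without the B cell-rich controls, and 3 to 6 when single libraries were left out. The 0 differences of effects became 1 without a read minimum (P4ha3), with the muscle score (Plod2) and without the B cell-rich controls (Plod1), and 0 to 1 by leaving out libraries. The 0 differences between control groups became 1 with the replicate block (Serpinh1) and 0 to 1 by leaving out libraries. The 11 calls of the other lists in PH20_TG became 6 with quantile normalization. The ratios to collagen were reported without a pseudocount, and the 6 called ones stayed 6 with a pseudocount of 0.1. Reads in place of FPKM entered only the family shares, so that setting could not change these ratios. Leaving out libraries and pairing by sign flips could not reach 0.05 for the shares and ratios, so no test was run.

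Same-numbered libraries did not all deviate together in either study (r from -0.18 to 0.13 in the Has2 study and from -0.04 to 0.42 in the PH20 study), so the numbers were not taken as pairs. With the replicate block, 3 genes were called in Has2_TG (Crtap gained), 6 in PH20_TG (P4ha2 and Plod3 gained and P3h1 lost) and 0 in the difference of effects.

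Signs of the log2 values from limma turned as follows. In Has2_TG the log2 fold changes of Plod1, Plod3 and Serpinh1 were -0.17, -0.13 and -0.20 with the B cell score, and -0.18, -0.14 and -0.22 without the B cell-rich controls. In PH20_TG Colgalt1 was -0.0072 with the muscle score. In the difference of effects Colgalt1 was 0.16 with the muscle score and Crtap -0.038 without the B cell-rich controls. Between controls Plod2 was -0.20 with the muscle score, and P4ha1 and Crtap were -0.13 and -0.048 without the B cell-rich controls. With single libraries left out, these log2 values ranged as follows. In Has2_TG, Plod1 -0.10 to 0.22, Plod3 -0.033 to 0.16, Plod2 -0.52 to 0.15, Colgalt1 -0.045 to 0.15. In PH20_TG, Colgalt1 -0.035 to 0.22. In the difference of effects, Colgalt1 -0.15 to 0.10, Crtap -0.034 to 0.30, P4ha2 -0.030 to 0.27. Between controls, Crtap -0.044 to 0.19, Plod1 -0.27 to 0.043, Colgalt1 -0.052 to 0.11. The depth limits Plod2 and P4ha3, with as few as 42 and 0 reads in a library.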
